A study of Mus musculus with 12 samples.

Results

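Scx, Mkx, Tnmd, Mstn, Chodl and Ptx4, a set of 6 genes grouped here as tendon lineage genes, were followed across 4 sorted cell populations of mouse bone and bone marrow. The genes were picked by name as tendon regulators and tendon-restricted genes, with their levels in these same populations already known, and no cutoff was applied. Their levels are therefore given as a description without a test. All 6 were found among the 49585 genes of the count tables by matching Ensembl identifiers to symbols, and all 6 were among the 18648 genes with at least 0.5 CPM (the count scaled to the depth of its library) in at least 1 library.

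Each population came from wild-type male C57BL/6 mice aged 8 to 10 weeks, was negative for CD45, Ter119 and CD31, and was sequenced in 3 libraries of 2000 sorted cells. The populations sorted from collagenase-digested bone fragments were Itga8+ MSCs (gated as Itga8+Alcam+Sca-1-), Itga8-Alcam+ BLCs (gated as Itga8-Alcam+Sca-1-, labelled as osteoblasts) and Sca-1+ MSCs (gated as Alcam-Sca-1+). CD51+CD140a+ MSCs were sorted from flushed and digested marrow. The route of isolation and the population therefore cannot be told apart in any comparison with CD51+CD140a+ MSCs. Total counts ran from 17580677 to 31332475 per library, so that 3 reads corresponded to between 0.0820 and 0.180 CPM. The labels do not say whether the libraries of a population came from separate mice, and p-values then measure only the spread between these libraries, which may be technical. Itga8 was at 35.2 to 199 CPM in Itga8+ MSCs and 0.398 to 4.17 CPM in Itga8-Alcam+ BLCs, and also at 53.1 to 82.9 CPM in CD51+CD140a+ MSCs, which were not sorted on it.

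Tendon cells arise from progenitors that switch on Scx, the basic helix-loop-helix transcription factor scleraxis, which pairs with E proteins and binds E-boxes, short DNA motifs of the form CANNTG. Mkx, the homeobox factor Mohawk, acts in the maturation of the collagen fibres, and Tnmd, the membrane glycoprotein tenomodulin, is a late marker of the lineage. Mstn encodes myostatin, a secreted ligand of the TGF-beta family best known for limiting muscle mass. Chodl encodes chondrolectin, a membrane protein with a C-type lectin domain, and Ptx4 encodes a member of the long pentraxins, a family that includes secreted pattern recognition proteins.

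Promoter sequence was taken for 3 of the 6 genes, from the RefSeq promoter table on GRCm38.p6, the assembly also known as mm10. It is shown so that these members, which were all highest in Itga8+ MSCs, may be compared for the E-box, the motif that scleraxis binds. The 250 bases before the RefSeq start of each gene, on the plus strand in all 3 cases, are printed 5′ to 3′ with each CANNTG in capitals. They cover chrX:133850758-133851007 for Tnmd, chr1:53061390-53061639 for Mstn and chr16:78930698-78930947 for Chodl. The end of the Tnmd stretch overlaps the first bases of the GENCODE model of the gene, which starts further upstream.
Tnmd: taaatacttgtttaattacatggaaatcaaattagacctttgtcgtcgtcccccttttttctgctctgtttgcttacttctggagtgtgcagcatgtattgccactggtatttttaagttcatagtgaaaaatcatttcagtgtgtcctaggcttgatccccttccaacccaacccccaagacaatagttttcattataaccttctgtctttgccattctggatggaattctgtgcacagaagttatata
Mstn: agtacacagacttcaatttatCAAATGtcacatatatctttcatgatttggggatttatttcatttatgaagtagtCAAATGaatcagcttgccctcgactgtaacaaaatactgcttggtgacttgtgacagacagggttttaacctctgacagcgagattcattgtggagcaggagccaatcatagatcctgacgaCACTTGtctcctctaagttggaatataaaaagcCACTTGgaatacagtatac
Chodl: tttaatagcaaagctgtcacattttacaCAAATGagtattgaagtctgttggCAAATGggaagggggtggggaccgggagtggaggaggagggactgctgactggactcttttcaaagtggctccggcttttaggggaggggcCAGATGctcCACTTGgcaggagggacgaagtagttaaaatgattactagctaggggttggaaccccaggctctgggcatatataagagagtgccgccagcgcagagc
The Mstn and Chodl stretches each held 4 copies of CANNTG, which reads the same on both strands, and the Tnmd stretch held 0. Among 32851 promoter stretches of the same length in the table, 66.2% held at least 1 copy, the median was 1 and 3.84% held at least 4. Mstn also held TATAAA, found on either strand in 12.4% of the stretches. A match of letters is a description of the sequence and not of binding. Scx, Mkx and Ptx4 were not matched in the table.

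In Itga8+ MSCs each of the 6 genes reached its highest mean level of the 4 populations. Every Itga8+ library lay above every Itga8-Alcam+ BLC library for 6 of 6 genes, an arrangement found for 6.73% of all genes tested. Against Sca-1+ MSCs this held for 5 of 6 genes (19.2% of all genes tested), with Mkx overlapping, and against CD51+CD140a+ MSCs for 6 of 6 (22.9%). Between Sca-1+ and CD51+CD140a+ MSCs every Sca-1+ library was higher for 5 of 6 genes (22.7%), again without Mkx. Since the genes were chosen on these levels, nothing further is read from those counts. The first 3 comparisons share the Itga8+ libraries, and the last shares libraries with 2 of them. In a sorted bulk sample, more cells that express a gene and more RNA of it per cell cannot be told apart.

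**Figure D1:**
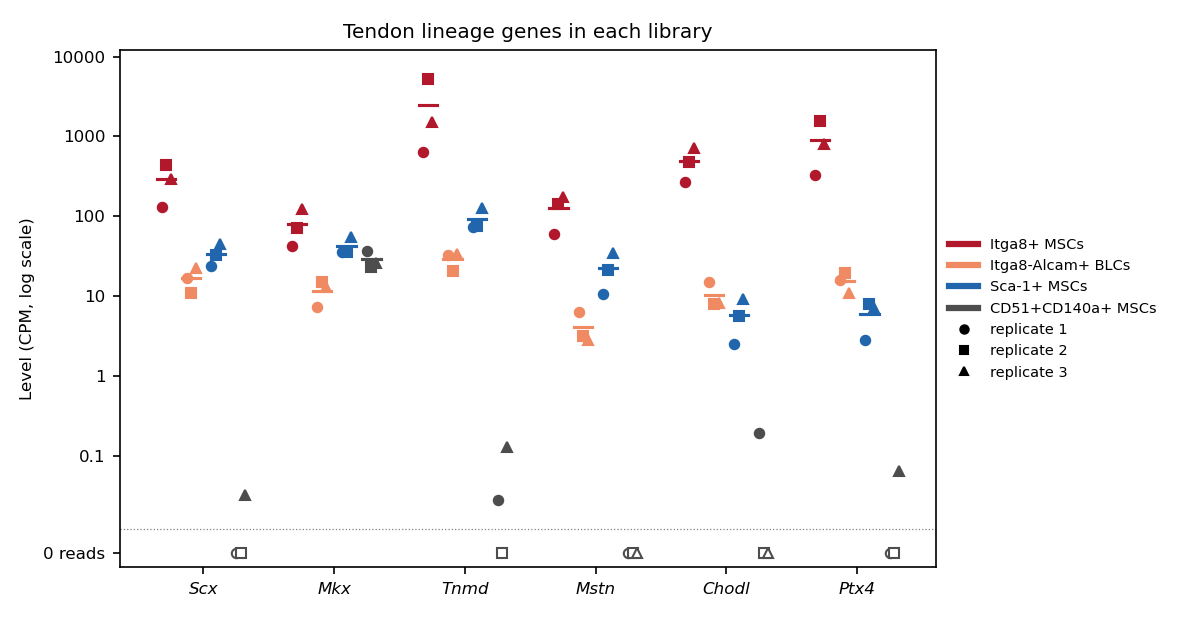
Level of each of the 6 genes in each of the 12 libraries, in CPM on a log axis, with the populations by colour and the replicates by symbol. Bars are means of 3 libraries and are left out where a library had no read, and open symbols below the dotted line are libraries with 0 reads. Itga8+ MSCs hold the highest mean for all 6 genes, and CD51+CD140a+ MSCs hold at most 7 reads over 3 libraries for 5 of them but 23.4 to 37.0 CPM of Mkx.

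Scx (ENSMUSG00000034161; chromosome 15, 76457452 to 76459458, plus strand, mm10) was read at 131, 442 and 296 CPM in the Itga8+ libraries, a mean of 289.7 ± 156 (SD, n = 3). The Sca-1+ libraries held 24.0, 32.2 and 45.4 CPM and the Itga8-Alcam+ libraries 17.0, 10.8 and 22.7 CPM. In CD51+CD140a+ MSCs 1 read was counted over 3 libraries. The populations thus ran from Itga8+ through Sca-1+ and Itga8-Alcam+ to CD51+CD140a+ with no overlap between neighbours. The mean of Itga8+ MSCs was 17.2-fold that of Itga8-Alcam+ BLCs and 8.56-fold that of Sca-1+ MSCs, and the lowest Itga8+ library was still 2.89-fold above the highest Sca-1+ library. With 1 read in the lower group, the pooled ratio of Itga8+ to CD51+CD140a+ MSCs was 29400.4 with a counting interval of 5277 to 1161256 (95%, exact, counting error only). The gene lies inside the span of Bop1 on the opposite strand, with no shared exon, and whether counting used strand is not given in the sources used here.

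Tnmd (ENSMUSG00000031250; chromosome X, 133850980 to 133865577, plus strand) was the most abundant of the 6 genes per length in Itga8+ MSCs. Its levels there were 639, 5327 and 1536 CPM, or 1816, 9776 and 4247 TPM (the count scaled to depth and exon length), which placed it at ranks 54, 9 and 19 of all genes by TPM. The spread was as wide as the mean (2501 ± 2489 CPM), as replicate 2 stood far above the other libraries. Sca-1+ MSCs held 73.9, 75.8 and 125 CPM, Itga8-Alcam+ BLCs 32.9, 20.3 and 33.8 CPM, and CD51+CD140a+ MSCs 5 reads in all. The populations kept the order seen for Scx and did not overlap. The mean of Itga8+ MSCs was 86.3-fold that of Itga8-Alcam+ BLCs and 27.3-fold that of Sca-1+ MSCs. Without Itga8+ replicate 2 the fitted log2 fold changes of Tnmd went from 6.43 to 5.25 against Itga8-Alcam+ BLCs and from 4.77 to 3.55 against Sca-1+ MSCs.

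Mstn (ENSMUSG00000026100; chromosome 1, 53061640 to 53068079, plus strand) reached 60.4, 142 and 176 CPM in Itga8+ MSCs, a mean of 126 ± 59.6. In Sca-1+ MSCs the values were 10.6, 21.4 and 34.5 CPM, in Itga8-Alcam+ BLCs 6.37, 3.15 and 2.82 CPM, and in CD51+CD140a+ MSCs 0 reads in each of 3 libraries. Again no neighbours in this order overlapped. Itga8+ MSCs were 30.7-fold above Itga8-Alcam+ BLCs and 5.69-fold above Sca-1+ MSCs by their means, and at least 4221-fold higher than CD51+CD140a+ MSCs when 3 reads over that group are taken as its limit. The gap to Sca-1+ MSCs was narrow, with the lowest Itga8+ library 1.75-fold above the highest Sca-1+ library.

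Since muscle is the best-known source of myostatin, muscle markers were read beside it. The 9 genes of mature skeletal muscle (Acta1, Ckm, Mylpf, Tnnt3, Myh1, Myh2, Myh4, Des and Ttn) summed to 17.8 to 43.2 CPM in Itga8+ MSCs, 9.96 to 32.3 CPM in Itga8-Alcam+ BLCs, 2.39 to 4.48 CPM in Sca-1+ MSCs and 24.1 to 40.4 CPM in CD51+CD140a+ MSCs, where Mstn had 0 reads. Des, desmin of the muscle cytoskeleton, made up most of the sum in CD51+CD140a+ MSCs, at 19.6, 35.1 and 30.1 CPM. Acta1, skeletal alpha-actin, was at 7.32, 17.4 and 22.8 CPM in Itga8+ MSCs, with 877 reads over those libraries. It had 205 reads over the Itga8-Alcam+ libraries, 17 over the Sca-1+ libraries and 1 over the CD51+CD140a+ libraries. Acta1 and Mstn were thus both highest in Itga8+ MSCs and lowest in CD51+CD140a+ MSCs, with the other populations in the reverse order. In Itga8+ MSCs Myh4 was at 0 and Myh1 at no more than 3 reads. Of the 6 muscle genes tested, by the edgeR test described with the paralogs, Acta1, Ckm, Mylpf and Des were called higher in Itga8+ than in Sca-1+ MSCs, as were 12.9% of all genes. Against CD51+CD140a+ MSCs, Acta1, Ckm and Tnnt3 were called higher and Des lower (21.2% and 14.3% of all genes), and against Itga8-Alcam+ BLCs 0 were called (1.66% higher and 2.16% lower of all genes). Of the 5 satellite cell genes, Pax7, Myf5, Myog and Cdh15 had 0 reads in Itga8+ MSCs and Myod1 had 1. The part of muscle RNA in the Mstn values was not tested.

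Chodl (ENSMUSG00000022860; chromosome 16, 78930948 to 78951733, plus strand) was found at 268, 479 and 719 CPM in Itga8+ MSCs, a mean of 489 ± 225. The Itga8-Alcam+ libraries held 14.8, 7.83 and 8.09 CPM and the Sca-1+ libraries 2.49, 5.65 and 9.18 CPM, so that these populations overlapped. All 7 reads of CD51+CD140a+ MSCs came from replicate 1. The mean of Itga8+ MSCs was 47.7-fold that of Itga8-Alcam+ BLCs and 84.7-fold that of Sca-1+ MSCs. Its lowest library was 18.1-fold above the highest Itga8-Alcam+ library and 29.2-fold above the highest Sca-1+ library.

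Ptx4 (ENSMUSG00000044172; chromosome 17, 25120760 to 25125292, plus strand) stood at 328, 1545 and 808 CPM in Itga8+ MSCs, a mean of 894 ± 613. The Itga8-Alcam+ libraries held 16, 19.6 and 10.9 CPM, all above the Sca-1+ libraries at 2.82, 7.83 and 7.17 CPM, and 2 reads were counted over the CD51+CD140a+ libraries. The order of Itga8-Alcam+ BLCs and Sca-1+ MSCs was therefore the reverse of that for Scx, Tnmd and Mstn. Itga8+ MSCs were 57.6-fold above Itga8-Alcam+ BLCs and 150.4-fold above Sca-1+ MSCs by their means, the widest ratio to Sca-1+ MSCs among the 6 genes. Leaving out Itga8+ replicate 2, its highest library, took the fitted log2 difference from 5.85 to 5.21 in the first of these comparisons and from 7.23 to 6.56 in the other.

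Mkx (ENSMUSG00000061013; chromosome 18, 6934518 to 7004780, minus strand) departed from the other five. Its levels were 42.9, 70.9 and 123 CPM in Itga8+ MSCs, 36.0, 35.4 and 55.4 CPM in Sca-1+ MSCs, 37.0, 23.4 and 25.8 CPM in CD51+CD140a+ MSCs, and 7.32, 14.9 and 12.9 CPM in Itga8-Alcam+ BLCs. Itga8+ MSCs overlapped Sca-1+ MSCs, Sca-1+ MSCs overlapped CD51+CD140a+ MSCs, and Itga8-Alcam+ BLCs stood apart, below all other libraries. By the means, Itga8+ MSCs were 6.75-fold above Itga8-Alcam+ BLCs, 2.75-fold above CD51+CD140a+ MSCs and 1.87-fold above Sca-1+ MSCs. The marrow population that held the other five at no more than trace level thus held Mkx at 28.7 ± 7.25 CPM. Per length, Mkx made up at least 97.7% of the summed TPM of the 6 genes in CD51+CD140a+ MSCs and 0.328% to 1.5% in Itga8+ MSCs. Of its exon bases, 4.91% are shared with another annotated gene, AC148004.2.

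Taking Itga8-Alcam+ BLCs against Sca-1+ MSCs, Scx, Mkx, Tnmd and Mstn were lower in every Itga8-Alcam+ library, which was so for 21.9% of all genes tested. Ratios to Scx were also taken on the TPM scale, which divides by exon length. It does not remove a trend with length that differs between libraries, as described below, so the ratios carry that trend as well. For Ptx4 the Itga8+ libraries gave ratios of 3.13, 4.37 and 3.41, the Itga8-Alcam+ libraries 1.18, 2.27 and 0.597 and the Sca-1+ libraries 0.147, 0.304 and 0.198. Chodl shared that order, with 0.749, 0.396 and 0.887, then 0.318, 0.265 and 0.130, then 0.0380, 0.0641 and 0.0740. For Mstn the ratio was 0.342, 0.239 and 0.442 in Itga8+ MSCs and 0.329, 0.493 and 0.565 in Sca-1+ MSCs, which overlap. Tnmd ran at 7.23, 17.9 and 7.70 times Scx in Itga8+ MSCs and at 4.57, 3.49 and 4.10 times Scx in Sca-1+ MSCs. Keratocan (Kera), a proteoglycan of tendon and cornea outside the set, ran the other way, at 0.898, 1.79 and 1.14 times Scx in Itga8+ MSCs and 5.43, 5.10 and 5.79 in Sca-1+ MSCs. Together the 6 genes summed to 3168 to 13102 TPM in Itga8+ MSCs, 309 to 538 TPM in Sca-1+ MSCs, 111 to 166 TPM in Itga8-Alcam+ BLCs and 22.1 to 39.5 TPM in CD51+CD140a+ MSCs.

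Itga8+ replicate 2 stood apart from its group for some members and not for others. Relative to the mean CPM of replicates 1 and 3, it held 4.90 times as much Tnmd, 2.72 times as much Ptx4 and 2.07 times as much Scx, but 1.2 times as much Mstn, 0.971 times as much Chodl and 0.853 times as much Mkx. The first group of genes has 1353, 1606 and 2007 annotated exon bases, and the second 2705, 5491 and 4095. Across all genes, those of at most 2000 exon bases lay 1.15 above those of at least 5000 on the log2 scale in this library, relative to its group. The same difference was -0.26 in replicate 1 and -0.84 in replicate 3. In Itga8-Alcam+ BLCs it was 0.03, -0.79 and 0.70 in replicates 1 to 3, and in each Sca-1+ or CD51+CD140a+ library it lay between -0.07 and 0.11. In the ratio of Itga8+ replicate 2 to the mean of replicates 1 and 3, S100a8 of neutrophils was at 17.3, beta-globin Hbb-bs at 14.8 and Col2a1 of cartilage at 0.0917. With an offset for the trend with exon length, the fitted log2 difference of Itga8+ from Sca-1+ MSCs was 3.99 for Tnmd (from 4.77), 6.63 for Ptx4 (from 7.23) and 2.63 for Scx (from 3.10). It was 2.23 for Mstn, 6.57 for Chodl and 0.87 for Mkx. Against Itga8-Alcam+ BLCs it was 6.15 for Tnmd (from 6.43), 5.63 for Ptx4 (from 5.85) and 4.08 for Scx (from 4.10). There it was 4.96 for Mstn, 5.58 for Chodl and 2.78 for Mkx. The part of length and of blood transcripts in the spread of these genes was not tested.

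To set the patterns side by side, each gene's log2(CPM + 1) was centred on its mean over the 12 libraries, and genes were ranked by the root mean square difference between profiles among 12286 genes with a mean of at least 5 CPM in 1 population. Chodl and Ptx4 were each other's nearest gene, with a difference of 0.55 on the log2 scale. Mstn stood at rank 3 from Scx (0.76), and Scx at rank 2 from both Tnmd and Mstn. Mkx was far from the rest, at rank 1705 from Scx, 1286 from Tnmd, 510 from Mstn, 1355 from Chodl and 1814 from Ptx4. Beyond the 6 genes, those near Scx included Mfap4 (0.44), a microfibril-associated protein, and Gm15677 (0.78), an annotated antisense gene whose reads cannot be told from those of the opposite strand here.

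Mfap4 was among the 3 nearest non-members for Scx, Tnmd, Chodl and Ptx4, at 309.9, 594 and 443 CPM in Itga8+ MSCs, 26.8 to 41.7 CPM in Sca-1+ MSCs, 13.6 to 28.0 CPM in Itga8-Alcam+ BLCs and 0.0573 to 0.273 CPM in CD51+CD140a+ MSCs. Kera (1.26) was also near Tnmd. Those of Mstn were Gm15677 (0.67), Sparcl1 (0.76) and Postn (0.85). Zfp185 (1.14) and Prph (1.25), which encodes the neuronal filament peripherin, were near Chodl, and Bpifb1 (1.28) and Ddah1 (1.43) near Ptx4. Mkx had a separate set, Col12a1 (0.51), a fibril-associated collagen, Bbs9 (0.57) and Etv1 (0.60), of which none was among the nearest of another member. With 0.1 in place of 1 added to the CPM, Gm15677 left the nearest genes of Scx, Etv1 those of Mkx, Sparcl1 and Postn those of Mstn, Prph those of Chodl and Ddah1 those of Ptx4. Since the 12 libraries fall into 4 populations, likeness here mostly ranks how genes differ between populations.

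**Figure D2:**
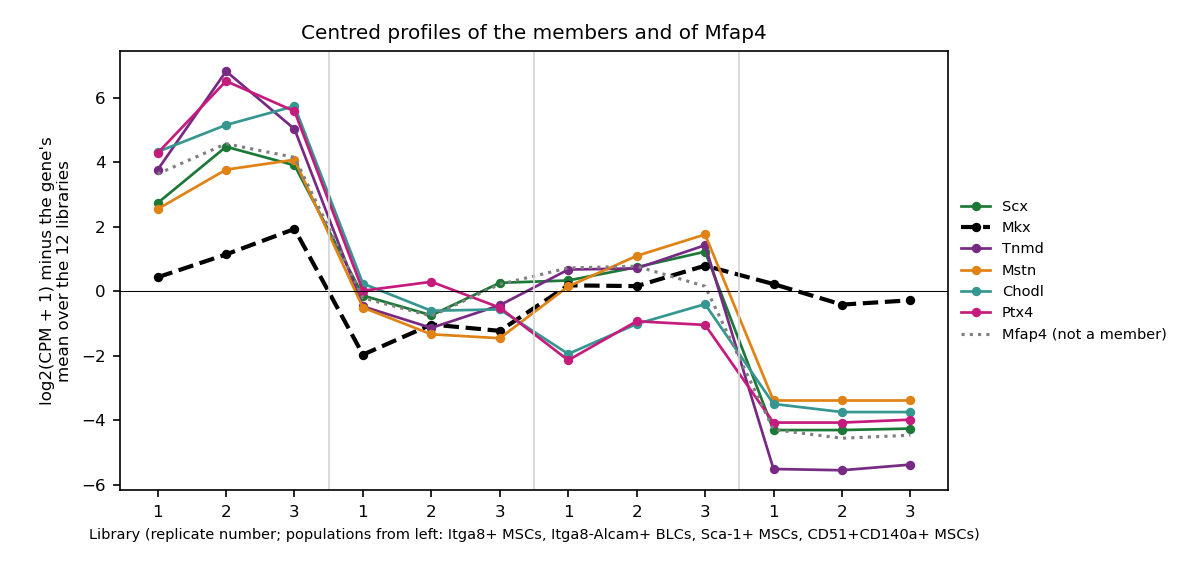
Profiles of the 6 genes and of Mfap4 over the 12 libraries, as log2(CPM + 1) minus the mean of each gene, with replicates 1 to 3 of each population side by side and lines that only join the points of a gene. Scx, Tnmd, Mstn, Chodl and Ptx4 have their lowest values in CD51+CD140a+ MSCs, Mkx is lowest in Itga8-Alcam+ BLCs, and Chodl and Ptx4 lie below the other members in Sca-1+ MSCs.

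Close relatives of the 6 genes were read next. In the tests that follow, a gene was called at an adjusted p under 0.1 (edgeR quasi-likelihood test with Benjamini-Hochberg adjustment over 18648 genes) and a fold change above 2. Cnmd, the cartilage paralog of Tnmd known as chondromodulin, was at 8024 ± 4004 CPM in the Itga8+ population and 4670.0 ± 1486 CPM in Itga8-Alcam+ BLCs, a difference that was not called (log2 fold change 0.78, adjusted p = 0.575). It was higher than in Sca-1+ MSCs, at 55.0 to 131 CPM, by 6.46 ± 0.57 (SE) on the log2 scale (adjusted p = 5.81e-05). Gdf11, the paralog of Mstn, stayed at 0.519 to 1.27 CPM in Itga8+ MSCs. Layn, a lectin related to Chodl, lay at 11.5 to 17.8 CPM in Itga8+ MSCs and 12.2 to 16.4 CPM in Sca-1+ MSCs, and was higher in both than in CD51+CD140a+ MSCs, by 4.36 ± 0.77 and 4.44 ± 0.77 (adjusted p = 0.00138 and 0.00152).

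Among the pentraxins, Ptx3 ran against Ptx4 in the comparisons of Itga8+ MSCs with CD51+CD140a+ and with Sca-1+ MSCs. It was at 438, 419.7 and 602 CPM in CD51+CD140a+ MSCs and 32.0 ± 13.1 CPM in Itga8+ MSCs, a fall of 3.93 ± 0.43 on the log2 scale (adjusted p = 5.19e-05). Set against Sca-1+ MSCs, Ptx3 was lower by 1.3 as well (adjusted p = 0.0446), a call lost without Itga8+ replicate 1 (adjusted p = 0.129), Sca-1+ replicate 1 (0.103) or Sca-1+ replicate 2 (0.147). The neuronal pentraxins Nptx1, Nptx2 and Nptxr were at 1.73, 0.467 and 17.2, 2.72, 0.208 and 4.10, and 9.60, 2.23 and 17.4 CPM in the Itga8+ libraries. Nptx1 was called higher than in CD51+CD140a+ MSCs (2.88 ± 1.15, adjusted p = 0.0775), but without Itga8+ replicate 3 the adjusted p was 0.795, and without CD51+CD140a+ replicate 1, 2 or 3 it was 0.101, 0.173 and 0.199. Crp and Apcs had 0 reads in all libraries.

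Tcf15, a basic helix-loop-helix relative of Scx, reached at most 1.19 CPM in any library. Of the Irx homeobox genes, which are related to Mkx, Irx1 and Irx4 did not pass the filter. Irx3 and Irx5 were lower in Itga8+ MSCs than in Itga8-Alcam+ BLCs by 2.77 ± 0.42 and 5.70 ± 0.70 on the log2 scale (adjusted p = 0.00337 and 0.00122), with Irx5 at 0.297, 0.831 and 2.25 against 40.7, 59.2 and 75.2 CPM. Mkx was higher in every Itga8+ library between these populations. Irx3 and Irx5 were also lower in Itga8+ than in CD51+CD140a+ MSCs (adjusted p = 8.17e-05 and 0.000452). Irx2 was at 1.89 to 3.30 CPM in Itga8-Alcam+ BLCs and at 5 reads in all in Itga8+ MSCs, and Irx6 had 65 reads in Itga8-Alcam+ BLCs and 0 elsewhere.

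The wider tendon programme was read from 63 further genes, of which 60 could be tested: 13 regulators, 38 matrix genes, 3 genes of the sheath and 6 of the enthesis, the insertion of tendon into bone. These genes did not all peak in Itga8+ MSCs as the 6 members did. The highest of the 4 means was in Sca-1+ MSCs for 28 of 60 genes (46.7%, against 20.9% of all genes tested) and in Itga8+ MSCs for 11 of 60 (18.3%, against 27.5%). The lowest mean was in CD51+CD140a+ MSCs for 38 of 60 (63.3%, against 32.0%). No test was run on these shares.

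Against Itga8-Alcam+ BLCs, the calls in Itga8+ MSCs were 12 higher and 6 lower of the 60 genes, where 1.66% and 2.16% of all genes were called in these directions. The median log2 fold change was 0.52, against 0.08 over all genes. The higher genes included Aspn (asporin), at 319 ± 206 against 9.09 ± 2.99 CPM (log2 fold change 5.13 ± 0.69, adjusted p = 0.00182). Kera was at 134, 898 and 382 against 17.1, 20.0 and 18.2 CPM (4.68 ± 0.68, adjusted p = 0.00291). Postn (periostin) rose by 4.97 ± 0.62 and Mfap5, of the microfibrils, by 4.23 ± 0.57 (adjusted p = 0.00131 and 0.00192). Of the 13 regulators, 2 were called, both higher: Eya2, a transcriptional cofactor, by 4.02 ± 0.36 and the homeobox factor Six2 by 2.51 ± 0.44 (adjusted p = 0.000196 and 0.00957).

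The 6 lower genes included the chains of type I collagen, the main protein of both tendon and bone. Col1a2 stood at 4203, 1505 and 13203 CPM in Itga8+ MSCs and at 53363, 197834 and 49738 CPM in Itga8-Alcam+ BLCs, a fall of 3.99 ± 0.76 on the log2 scale (adjusted p = 0.0153). Col1a1 fell by 3.90 ± 0.97 (adjusted p = 0.0592), with 5952, 213 and 7217 CPM in the Itga8+ libraries. Lox, which cross-links collagen, Col5a2 and Lum (lumican) fell by 2.94, 2.35 and 1.94 (adjusted p = 0.0400, 0.0949 and 0.0485), and Has1 was the sixth. The lower calls came to 1 without Itga8+ replicate 1, and to 3 without Itga8-Alcam+ replicate 2 or replicate 3. Has1 was among those lost without Itga8+ replicate 1 and without Itga8-Alcam+ replicate 3. Col1a1 lost its call without Itga8+ replicate 1, Itga8-Alcam+ replicate 1 or Itga8-Alcam+ replicate 2 (adjusted p = 0.130 to 0.149), Lox without Itga8+ replicate 1 (0.149) or Itga8-Alcam+ replicate 2 (0.132), Lum without Itga8+ replicate 1 or 3 or Itga8-Alcam+ replicate 3 (0.120 to 0.166), and Col5a2 without any of the libraries other than Itga8+ replicate 3 (0.101 to 0.302). Osteoblast markers moved with these genes: of the 9 on the list, Sp7, Bglap, Bglap2, Ibsp, Alpl, Dmp1, Phex and Runx2 were called lower in Itga8+ MSCs and 0 higher. Summed over the 9 genes, the level was 1959.6 to 2719 CPM in Itga8+ MSCs and 9959 to 28133 CPM in Itga8-Alcam+ BLCs, with none at 0. The part of osteoblast RNA in the lower tendon genes was not tested.

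The comparison with Sca-1+ MSCs held more lower than higher genes. Of the 60, 6 were called higher in Itga8+ MSCs and 20 lower (12.9% and 8.89% of all genes), with a median log2 fold change of -0.86 against 0.16 over all genes. Tnxb (tenascin X) was at 0.571 to 2.54 CPM against 116 to 311 CPM (a fall of 7.32 ± 0.72, adjusted p = 0.000113) and Col14a1, a fibril-associated collagen, at 1.73 to 12.4 against 584 to 962 CPM (a fall of 7.21 ± 1.03, adjusted p = 0.000845). Angptl7, Col3a1 and Fbn1 (fibrillin-1) fell by 4.65 ± 0.91, 4.4 ± 0.97 and 4.17 ± 0.82 (adjusted p = 0.00541, 0.0104 and 0.00553). All 3 sheath genes, Tppp3, Prg4 (lubricin) and Has1, fell, by 2.13, 2.64 and 3.60 (adjusted p = 0.0147, 0.000564 and 0.000118).

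The higher genes in that comparison were led by Col22a1, a collagen of the muscle-tendon junction, at 239, 148 and 1719 against 10.7, 24.0 and 14.7 CPM (5.41 ± 1.02, adjusted p = 0.00434), and by Col11a1 (3.55 ± 0.79, adjusted p = 0.0110). Fbn2 and Sox9, a regulator of cartilage that also marks enthesis progenitors, rose by 2.91 ± 0.80 and 1.63 ± 0.44 (adjusted p = 0.0298 and 0.0263). Postn rose by 1.73 ± 0.54 (adjusted p = 0.0498), a call lost without Itga8+ replicate 3 or without any of the Sca-1+ libraries (adjusted p = 0.121 to 0.151).

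Markers of other cell types differed along with this comparison. The 10 cartilage genes summed to 73838, 11758 and 118543 CPM in the Itga8+ libraries and to 11863 to 77892 CPM in Itga8-Alcam+ BLCs, against 1289 to 1601 CPM in Sca-1+ MSCs, and Col11a1 and Sox9 are also used by cartilage. The 5 genes of adventitial fibroblasts (Pi16, Dpp4, Cd55, Cd248 and Clec3b) summed to 1084 to 1539 CPM in Sca-1+ MSCs and 37.1 to 60.6 CPM in Itga8+ MSCs, and no gene of either list was at 0 in these populations. Of the cartilage genes, 8 were called higher in Itga8+ than in Sca-1+ MSCs and 0 lower, and the 5 adventitial genes were all called lower. Among 7 blood genes tested, 6 were called higher (Lyz2, S100a8, S100a9, Elane, Mpo and Cd79a), as were Acta2 and Tagln of 4 mural genes. Of 9 osteoblast genes, Sp7, Bglap, Bglap2, Alpl and Runx2 were called higher and Phex lower, while the list summed to 1959.6 to 2719 CPM in Itga8+ and 2779 to 4394 CPM in Sca-1+ MSCs. The part of these cell types in the list's values was not tested.

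With CD51+CD140a+ MSCs as the reference, Itga8+ MSCs had 31 higher and 8 lower calls of the 60 genes (21.2% and 14.3% of all genes), and Sca-1+ MSCs had 39 higher and 8 lower (11.2% and 9.30%). The medians were 1.42 and 2.42 on the log2 scale, against 0.18 and -0.00 over all genes. Several matrix genes were close to absent from the marrow population. Thbs4 (thrombospondin 4) was at 0.0273 to 0.419 CPM there, 2504 to 8751 CPM in Itga8+ MSCs and 1762 to 2451 CPM in Sca-1+ MSCs (adjusted p = 2.34e-06 and 3.57e-06), and Kera had 2 reads there in all. Cilp2, Cilp and Chad were higher in Itga8+ MSCs by 12.28 ± 1.39, 11.53 ± 1.23 and 8.46 ± 0.88 (adjusted p = 6.17e-05, 3.96e-05 and 3.53e-05). Cilp2 and Angptl7 were higher in Sca-1+ MSCs by 13.36 ± 1.44 and 12.77 ± 1.27 (adjusted p = 4.86e-05 and 2.81e-05), with Tnxb at 2 reads in CD51+CD140a+ MSCs. Markers of other cell types differed here too. The 10 cartilage genes summed to 505 to 1323 CPM in CD51+CD140a+ MSCs, with 8 called higher in Itga8+ and 5 in Sca-1+ MSCs and 0 lower. The 5 adventitial genes summed to 30.8 to 39.8 CPM there, with 3 called higher in Itga8+ and 5 in Sca-1+ MSCs. All 6 genes of LepR+ stroma were called lower in both. Of the 9 osteoblast genes, which summed to 9511 to 19973 CPM in CD51+CD140a+ MSCs, 4 were called lower in the Itga8+ population and 6 in the Sca-1+ population, with 0 higher. No gene of these lists was at 0 in the populations compared, and the part of these cell types in the tendon list was not tested.

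Other tendon genes were higher in the marrow population, which also held Mkx, than in Itga8+ or Sca-1+ MSCs. Tnc (tenascin C) was at 8824 to 9906 CPM in CD51+CD140a+ MSCs, and lower by 4.33 ± 1.14 in Itga8+ and by 4.26 ± 1.13 in Sca-1+ MSCs (adjusted p = 0.0141 and 0.0214). Bmp4 was lower by 4.70 ± 0.53 and 2.23 ± 0.47 (adjusted p = 6.02e-05 and 0.00578). In Itga8+ MSCs Fbn1 and Lox were lower by 3.23 and 2.66 (adjusted p = 0.00920 and 0.0105). In Sca-1+ MSCs Eya1 was lower by 2.67 ± 0.48 (adjusted p = 0.00188), while the calls of Ptch1 and Fbn2, lower by 2.29 and 2.25, were lost without any of the 6 libraries compared (adjusted p = 0.103 to 0.207 and 0.103 to 0.192). The 8 lower calls of Sca-1+ MSCs came to 4 without Sca-1+ replicate 1, 5 without Sca-1+ replicate 2 or 3, and 4 without CD51+CD140a+ replicate 3.

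**Figure D3:**
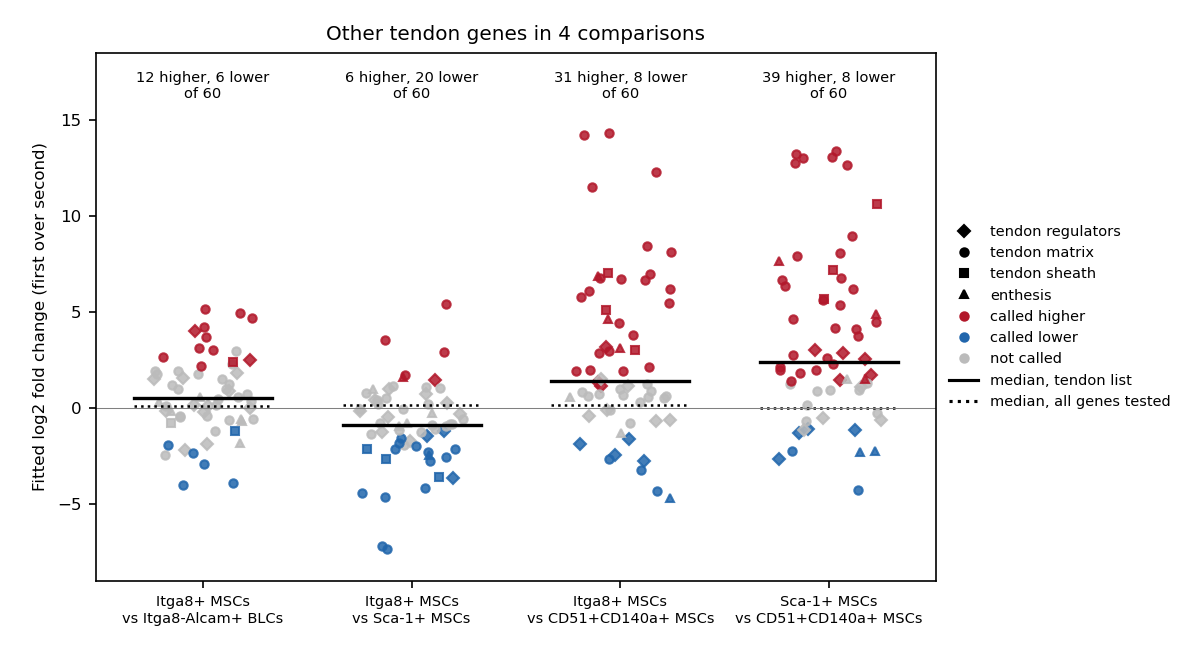
Fitted log2 fold changes of 60 further tendon genes in 4 comparisons, first population over second, with genes called higher, called lower (adjusted p under 0.1 and fold above 2) or not called told apart by colour. Solid lines are medians of the 60 genes and dotted lines medians of all genes tested. The calls go from 12 higher and 6 lower against Itga8-Alcam+ BLCs to 6 higher and 20 lower against Sca-1+ MSCs.

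Myostatin signals through the type II receptors Acvr2b and Acvr2a with the type I receptors Acvr1b and Tgfbr1, is held inactive by its own propeptide and by Fst (follistatin) and Fstl3, and is activated by proteases of the Bmp1 family. Acvr2b was at 0.0990, 0.156 and 0.173 CPM in Itga8+ MSCs, 8 reads in all, against 0.946 to 2.52 CPM in Itga8-Alcam+ BLCs, 0.775 to 1.69 CPM in Sca-1+ MSCs and 4.84 to 7.44 CPM in CD51+CD140a+ MSCs. It was lower in Itga8+ MSCs by 3.59 ± 0.58, 2.99 ± 0.57 and 5.45 ± 0.60 on the log2 scale (adjusted p = 0.00533, 0.00501 and 5.06e-05). Acvr2a, at 10.5, 1.71 and 18.8 CPM in Itga8+ MSCs, was lower than in CD51+CD140a+ MSCs, which held 139.7 to 206 CPM, by 4.08 ± 0.67 (adjusted p = 0.000790). Against Sca-1+ MSCs it fell by 1.9 (adjusted p = 0.0553), a call lost without Itga8+ replicate 1 (0.117), Sca-1+ replicate 2 (0.120) or Sca-1+ replicate 3 (0.133). Acvr1b stayed at or under 1.38 CPM in the 3 populations from bone, and was lower in Itga8+ than in CD51+CD140a+ MSCs by 2.71 ± 0.71 (adjusted p = 0.0137). Tgfbr1, at 30.8, 12.3 and 110.0 CPM in Itga8+ MSCs, was not called in its comparisons.

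Among the inhibitors, Fst was at 4.62 to 10.6 CPM in Itga8+ MSCs and 284 to 368 CPM in CD51+CD140a+ MSCs, lower by 5.60 ± 0.39 (adjusted p = 2.33e-06), and lower by 2.66 ± 0.35 than in Sca-1+ MSCs (adjusted p = 0.000489). Fstl3 ran the other way, at 31.9 to 38.3 CPM in Itga8+ MSCs and 1.23 to 3.03 CPM in CD51+CD140a+ MSCs (higher by 4.08 ± 0.40, adjusted p = 2.08e-05). Wfikkn1 and Wfikkn2, secreted binders of myostatin, were at 0, 0.727 and 0.636 and at 0.445, 0.260 and 0.0578 CPM in Itga8+ MSCs. Inhba, a subunit of activin A, which uses the same type II receptors, was at 65.3 to 87.8 against 4.18 to 5.36 CPM, higher by 4.02 ± 0.35 (adjusted p = 1.02e-05).

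Of the 20 pathway genes, 0 were called higher and 3 lower in Itga8+ MSCs than in Itga8-Alcam+ BLCs (Acvr2b, Bmp1 and Inhbb), which is 0% and 15% of the list beside 1.66% and 2.16% of all genes. Relative to Sca-1+ MSCs, 0 were called higher and 5 lower (Acvr2a, Acvr2b, Fst, Bmp1 and Smad3), or 0% and 25% beside 12.9% and 8.89% of all genes. DESeq2 also called 0 higher in both, and edgeR gave an unadjusted p under 0.05 to 0 higher genes in the first and 2, Fstl3 and Inhba, in the second. Bmp1 fell by 2.26 ± 0.50 against Itga8-Alcam+ BLCs (adjusted p = 0.0360), a call lost without Itga8-Alcam+ replicate 2 (0.107). Its call against Sca-1+ MSCs (1.36 lower, adjusted p = 0.0806) was lost without Itga8+ replicate 1 or 2, any of the Sca-1+ libraries, or CD51+CD140a+ replicate 1 or 3 (adjusted p = 0.0600 to 0.198), in the case of Itga8+ replicate 2 because the fold fell under 2. Inhbb fell by 2.49 ± 0.47 against Itga8-Alcam+ BLCs (adjusted p = 0.0143) and Smad3, which carries the signal to the nucleus, by 2.11 ± 0.46 against Sca-1+ MSCs (adjusted p = 0.00996). The 5 lower calls against Sca-1+ MSCs came to 3 without Itga8+ replicate 1, Sca-1+ replicate 2 or Sca-1+ replicate 3. Against CD51+CD140a+ MSCs the counts were 3 higher and 4 lower in Itga8+ MSCs and 4 higher and 5 lower in Sca-1+ MSCs, the last being 3 without Sca-1+ replicate 2 or CD51+CD140a+ replicate 2. These are 15% and 20% of the list for Itga8+ MSCs, near the 21.2% and 14.3% of all genes, and 20% and 25% for Sca-1+ MSCs, beside 11.2% and 9.30%. Medians over the list were -0.04, -0.15, -0.39 and -0.54 in the 4 comparisons, against 0.08, 0.16, 0.18 and -0.00 over all genes.

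**Figure D4:**
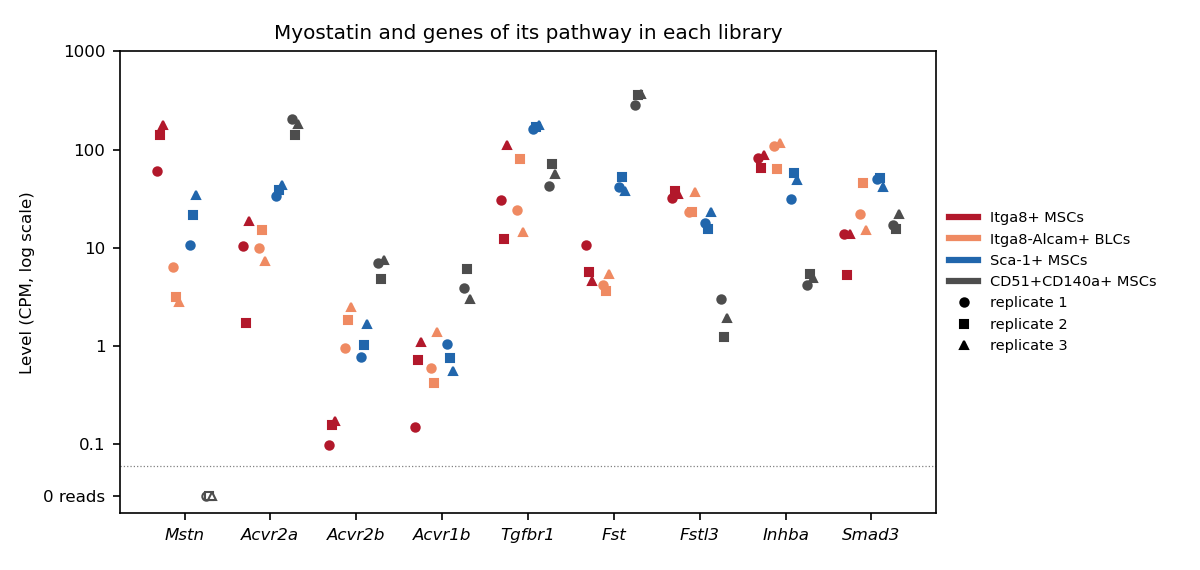
Level of Mstn and of 8 genes of its pathway in each library, in CPM on a log axis, with populations by colour and replicates by symbol, and with open symbols below the dotted line for libraries with 0 reads. Mstn is highest in Itga8+ MSCs at 60.4 to 176 CPM and has 0 reads in CD51+CD140a+ MSCs, where the receptors Acvr2a, Acvr2b and Acvr1b and the inhibitor Fst are highest.

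Other marker lists were summed per library beside these results. Genes of LepR+ stroma summed to 44723 to 61184 CPM in CD51+CD140a+ MSCs, where 5 of the 6 members were at trace level, and to 201 to 739.6 CPM in the other populations. The 8 blood genes summed to 5657, 11829 and 2296 CPM in the Itga8+ libraries, 4334 to 6479 CPM in Itga8-Alcam+ BLCs, 869.8 to 1713 CPM in Sca-1+ MSCs and 971 to 1684 CPM in CD51+CD140a+ MSCs, with Cd3e at 0 in all. The same 6 of them were called higher in Itga8+ MSCs against CD51+CD140a+ MSCs as against Sca-1+ MSCs, and 0 were called against Itga8-Alcam+ BLCs. Endothelial, mural and Schwann cell genes summed to 10.2 to 23.8, 125 to 347 and 7.64 to 26.9 CPM in Itga8+ MSCs, with mural genes at 24.3 to 76.3 CPM elsewhere. The 9 stress genes, which respond to handling and dissociation, summed to 7441 to 10656 CPM in Itga8+ MSCs, 7732 to 11647 CPM in Itga8-Alcam+ BLCs, 7497 to 8537 CPM in Sca-1+ MSCs and 11958 to 17274 CPM in CD51+CD140a+ MSCs, with none at 0. Fosb, Jun, Junb and Dusp1 were called lower in Itga8+ than in CD51+CD140a+ MSCs (14.3% of all genes), and Atf3 and Hspa1a lower than in Itga8-Alcam+ BLCs (2.16%), with 0 called higher in either and 0 called against Sca-1+ MSCs. For Sca-1+ against CD51+CD140a+ MSCs, Hspa1a and Hspa1b were called higher and Fosb, Jun and Junb lower (11.2% and 9.30%). Their part in the values of the tendon and myostatin genes was not tested. Cdh15, an adhesion molecule on the satellite cell list, was at 70.4, 154 and 120.3 CPM in Itga8-Alcam+ BLCs, where Pax7 had 1 read, Myf5 7, Myod1 110 and Myog 134. Most of the Myod1 reads and all of the Myog reads came from Itga8-Alcam+ replicate 2, and each had at most 1 read in any other population.

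**Figure D5:**
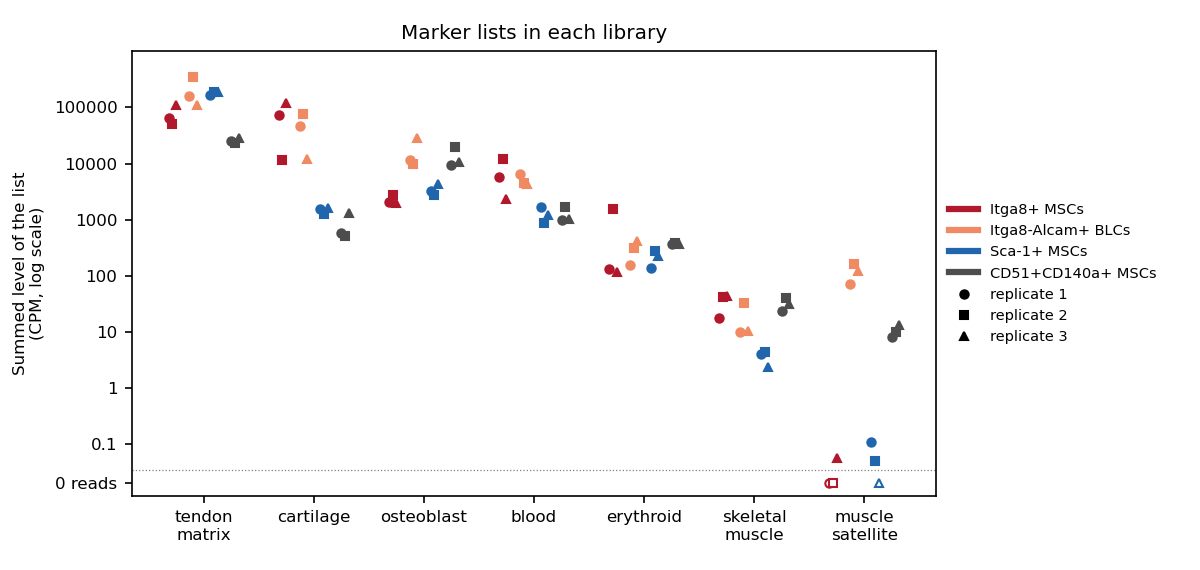
Summed level of 7 marker lists in each library, in CPM on a log axis, with populations by colour and replicates by symbol, and with open symbols below the dotted line for libraries with 0 reads. Cartilage genes are high in both Alcam+ populations, at 11758 to 118543 CPM, satellite cell genes are at 0 or near it in Itga8+ and in Sca-1+ MSCs, and blood and erythroid genes are highest in Itga8+ replicate 2.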

How the data were processed

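RNA of 4 sorted populations, 3 libraries each, was amplified with SMART-Seq v4 and sequenced after Nextera XT library preparation. The authors deposited raw read counts per Ensembl gene, unnormalized, on mm10. Their processing notes list FastQC 0.11.7, Trimmomatic 0.38, HISAT2 2.1.0, SAMtools 1.9 and featureCounts 1.6.3, whereas the methods of the study name TopHat with Bowtie2. The use of strand in counting is not given in the sources used here.

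Counts were scaled by TMM and fitted with edgeR 4.0.16 (quasi-likelihood, R 4.3.3) over all 12 libraries with population as the only term, keeping genes that reached 0.5 CPM in 1 or more libraries. Calls needed an adjusted p under 0.1 (Benjamini-Hochberg over all genes tested) and a fold above 2. TPM used exon lengths of GENCODE M21, in which 259 of 49585 identifiers had no entry. Alternatives were RLE size factors, no filter, DESeq2 1.42.0, a replicate block, leaving out each library, log2(CPM + 0.1) for the nearest genes and, chosen after seeing the data, an offset for exon length. Intervals and limits from counts cover counting error only.

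On simulated counts for Itga8+ MSCs against Itga8-Alcam+ BLCs (17657 genes), 92.4% of 66 genes changed 8-fold, 44.8% of 67 changed 4-fold and 4.48% of 67 changed 2-fold were called.

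The members and gene lists were chosen with earlier results of these data known. Named genes were the 6 members, the 5 tendon genes with the most positive and the most negative called change per comparison (at least 5 CPM in the higher mean), receptors, inhibitors and called genes of the myostatin pathway, relatives of the members, and the 3 nearest genes by profile. Six2, Has1, Tppp3, Prg4, S100a8, Hbb-bs, Col2a1 and the called genes of the marker lists were named after their values were seen. Within a population, libraries correlated at r of 0.86 to 0.97, and no pair was alike within sampling noise. Some genes that this rule selects are not reported here. Single-cell data of the study were not analysed here.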

Additional observations from a re-analysis of the deposited data

How the results depend on the processing

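For Itga8+ MSCs against Itga8-Alcam+ BLCs, the 310 higher and 402 lower genes came to 597 and 606 with DESeq2, and leaving out 1 library gave 197 to 446 and 236 to 440. The tendon genes, 12 higher and 6 lower, came to 18 and 7 with DESeq2 and 16 and 6 with the offset for exon length, and to 9 to 17 and 1 to 5 on leaving out a library. Against Sca-1+ MSCs, leaving out a library gave 1358 to 3110 higher and 1028 to 2768 lower genes in all (2397 and 1658 with all libraries), 4 to 9 higher and 16 to 29 lower tendon genes, and 3 to 6 lower myostatin pathway genes. The offset added 1 higher myostatin pathway gene there, where 0 were called otherwise. For Sca-1+ against CD51+CD140a+ MSCs, leaving out a library gave 4 to 9 lower tendon genes and 3 to 5 lower myostatin pathway genes. No result changed direction under the alternatives run. RLE size factors and dropping the filter kept every count within 1.5 times; without the filter Gdf11 lost its call of Sca-1+ against CD51+CD140a+ MSCs (adjusted p = 0.158), which it also lost without any 1 of those 6 libraries (0.104 to 0.212).

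The replicate numbers were not taken to pair libraries: of 18 pairs of populations and numbers, 5 had a correlation of deviations above 0.1 (range -0.58 to 0.20), and 4 of 12 libraries correlated best with their own number. With a replicate block, the counts against Itga8-Alcam+ BLCs came to 188 higher and 245 lower genes in all and to 9 higher and 2 lower tendon genes. Lost calls were followed for the named genes except Six2, Has1, Tppp3, Prg4 and the marker genes. Under the block, calls against Itga8-Alcam+ BLCs were lost by Col1a1 (adjusted p = 0.171), Col5a2 (0.204), Lum (0.134), Cilp (0.232) and Irx6 (0.331). Since Col1a2 and Lox kept theirs, the 2 lower tendon genes left mean that Has1 lost its call too. Against Sca-1+ MSCs, calls were lost by Bmp1 (0.121), Postn (0.112) and Irx5 (0.101), and against CD51+CD140a+ MSCs by Col1a1 (0.166) and Nptx1 (0.196). For Sca-1+ against CD51+CD140a+ MSCs they were lost by Gdf11 (0.138) and Smad3 (0.112). Among the members, leaving out Itga8+ replicate 2 lowered the fitted changes of Tnmd and Ptx4 by over 1.5 times in each comparison of Itga8+ MSCs. The offset for exon length moved those against Sca-1+ MSCs from 4.77 to 3.99 for Tnmd and from 7.23 to 6.63 for Ptx4. Against CD51+CD140a+ MSCs it moved Tnmd from 15.47 to 14.69 and Ptx4 from 15.12 to 14.55. The fitted changes of Scx, Tnmd, Chodl and Ptx4 against CD51+CD140a+ MSCs, which rest on at most 7 reads there, moved with the library left out. For Mkx, without Itga8+ replicate 3, the log2 fold change went from 0.90 to 0.38 against Sca-1+ MSCs and from 1.46 to 0.98 against CD51+CD140a+ MSCs. Depth was not a limit for the members in the 3 bone populations, and in CD51+CD140a+ MSCs 3 reads were at most 0.0966 CPM. With log2(CPM + 0.1) in place of log2(CPM + 1), 2 of the 3 nearest genes were shared for Scx, Mkx, Tnmd, Chodl and Ptx4 and 1 of 3 for Mstn, and without the filter all 3 were shared for each.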
